A study of Mus musculus with 120 samples.

Results

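Whole livers of mice that lack both cryptochrome genes were compared with livers of wild-type mice by sequencing of ribosome-depleted total RNA. The 24 libraries were chosen by one rule, as all unfractionated total RNA libraries of both genotypes read as mRNA, out of 120 libraries of the series, the others being nuclear and cytoplasmic RNA. They comprise 12 libraries labelled Cry1-/- Cry2-/- (CryKO) and 12 labelled C57BL/6 (WT), with 2 libraries per genotype at each of 6 zeitgeber times (ZT0, ZT4, ZT8, ZT12, ZT16 and ZT20), where ZT0 is the onset of light and ZT12 the onset of darkness. The study's methods describe the WT animals as male C57/BL6J mice aged from 8 to 12 weeks, kept in equal periods of light and dark and fed only during the dark phase in the days before sampling. The sex, age, background strain, feeding and deleted exons of the CryKO animals are not given in the sources used here, so strain, feeding and the loss of the genes cannot be told apart where they differ between the groups. Transcripts of 4 genes of the Y chromosome (Ddx3y, Kdm5d, Eif2s3y and Uty) were present in all 24 libraries, with lowest values per gene of 5.12 to 16.1 CPM (counts scaled by the effective size of each library). The methods also state that RNA of male rat liver was added, and its share in these values was not tested.

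The circadian clock of a cell is a feedback loop of transcription. BMAL1 (encoded by Arntl) and CLOCK bind E-box elements and switch on the Per and Cry genes, whose products repress that activity, and the same factors drive Nr1d1, Nr1d2 and the PARbZip factors Dbp, Tef and Hlf, which act in turn through RORE and D-box elements. Cryptochromes are the strongest repressors of BMAL1 and CLOCK. In the liver this loop and the rhythm of feeding together time the synthesis of enzymes for glucose, lipid, bile acid and drug metabolism, and cryptochromes are also known to bind nuclear receptors such as the glucocorticoid receptor.

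The promoters below belong to genes of different arms of the loop whose genotype difference varied over the day. Only promoters that hold a match to an element searched are printed. They are RefSeq promoters on GRCm38.p6, 250 bases upstream of the annotated start, written 5′ to 3′ on the strand of the gene, and for Arntl a stretch of 30 bases around its only match. Matches were searched from 250 bases before to 50 bases after the start. Capitals mark matches on either strand to the E-box CACGTG, to the D-box TTATGTAA or TTATGCAA, or to the RORE core TAGGTCA or TGGGTCA.
Cry1 (chr10:85185055-85185304, minus strand, E-box): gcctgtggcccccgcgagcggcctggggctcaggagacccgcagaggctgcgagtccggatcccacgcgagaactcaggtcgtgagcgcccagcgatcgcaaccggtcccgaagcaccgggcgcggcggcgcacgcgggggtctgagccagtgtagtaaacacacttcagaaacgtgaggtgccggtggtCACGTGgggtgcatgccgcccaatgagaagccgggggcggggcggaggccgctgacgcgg
Ciart (chr3:95882229-95882478, minus strand, 3 E-boxes): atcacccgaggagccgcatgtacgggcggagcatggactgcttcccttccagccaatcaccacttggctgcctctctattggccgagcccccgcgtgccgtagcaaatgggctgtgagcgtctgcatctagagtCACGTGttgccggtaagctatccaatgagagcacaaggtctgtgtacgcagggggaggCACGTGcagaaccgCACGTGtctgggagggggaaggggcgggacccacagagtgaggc
Bhlhe41 (chr6:145865421-145865670, minus strand, E-box): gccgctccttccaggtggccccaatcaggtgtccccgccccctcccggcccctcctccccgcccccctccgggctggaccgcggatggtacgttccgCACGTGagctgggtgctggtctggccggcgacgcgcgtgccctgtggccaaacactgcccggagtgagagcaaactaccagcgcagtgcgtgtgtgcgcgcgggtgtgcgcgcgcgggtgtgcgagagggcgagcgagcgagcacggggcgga
Tef (chr15:81802423-81802672, plus strand, E-box): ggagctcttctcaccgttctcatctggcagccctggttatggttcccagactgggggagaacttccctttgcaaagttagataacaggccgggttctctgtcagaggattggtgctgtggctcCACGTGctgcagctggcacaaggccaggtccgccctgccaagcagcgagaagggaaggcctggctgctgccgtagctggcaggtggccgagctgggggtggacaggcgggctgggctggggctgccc
Per3 (chr4:151044666-151044915, minus strand, 2 D-boxes): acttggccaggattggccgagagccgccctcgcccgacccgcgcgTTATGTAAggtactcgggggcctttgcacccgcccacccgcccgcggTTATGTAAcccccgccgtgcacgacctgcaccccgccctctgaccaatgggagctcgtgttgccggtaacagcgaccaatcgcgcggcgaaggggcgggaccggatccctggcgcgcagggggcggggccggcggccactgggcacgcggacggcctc
Arntl (chr7:113207530-113207559, plus strand, RORE): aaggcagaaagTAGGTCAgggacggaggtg
The E-box matches began 60 bases before the start of Cry1, 58 and 44 bases and once farther before that of Ciart, 153 bases before that of Bhlhe41 and 127 bases before that of Tef. In Per3 the D-box matches began 205 and 158 bases before the start, and in Arntl the RORE match began 31 bases after it. Of the 32851 promoters in the table, each searched over the same stretch from 250 bases before to 50 after the start and so over more bases than are printed here, 7.15% held the E-box, 1.66% the D-box and 6.45% the RORE core. None of these letters was found in the windows of Nr1d1, Nr1d2 and Dbp, whose genotype difference also varied over the day. Per2 is a further member of the loop.

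Total estimated counts ran from 26.7 to 42.8 M in WT and from 29.1 to 39.03 M in CryKO. A single library, CryKO at ZT20 replicate 1, stood apart: pre-mRNA took 14.4% of its counts, against 27.01% to 33.8% in the other 11 CryKO libraries and 22.8% to 26.7% in WT. The genotypes also differed in a property of the RNA as sequenced. When genes were ranked by the GC content of their transcripts, the median deviation of the lowest quartile minus that of the highest, called the GC tilt here, was -0.58 to -0.13 (log2) in WT, 0.18 to 0.44 in 11 CryKO libraries and -0.59 in CryKO ZT20 replicate 1 (exact permutation test within times, two-sided, p = 0.000129, adjusted p = 0.000774 over 12 measures). Library batches are not given in the sources used here, so a batch and the genotype cannot be told apart. Levels adjusted for GC content are therefore given as an alternative that was chosen after seeing the data, as is the fit without CryKO ZT20 replicate 1. In a further 3 WT libraries (ZT4 replicate 1, ZT20 replicate 2 and ZT16 replicate 2) the summed level of 12 acute phase genes was 39966 to 99776 CPM, against 18830 to 24980 CPM in the other 9 WT libraries and 16062 to 31625 CPM in CryKO.

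**Figure D1:**
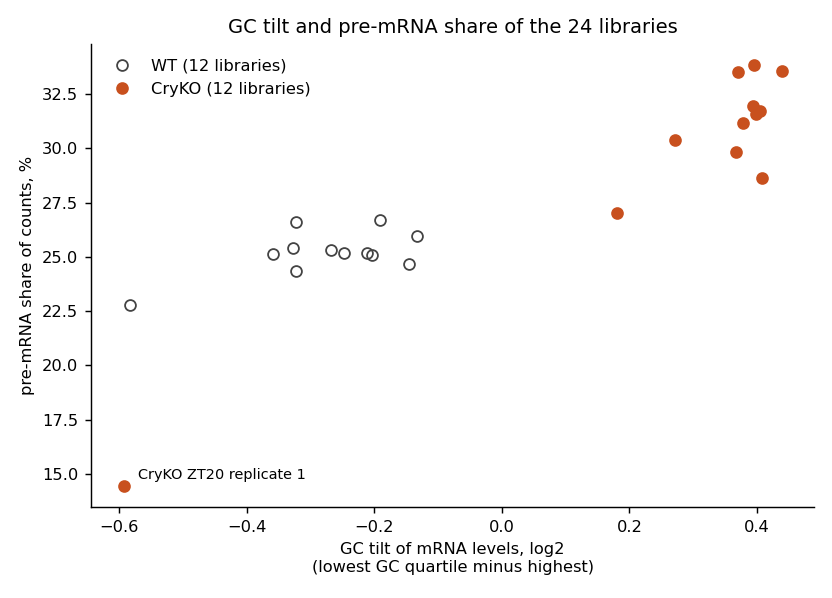
GC tilt of the mRNA levels (log2, horizontal axis) against the share of counts assigned to pre-mRNA (percent, vertical axis), 1 point per library, open for WT and filled for CryKO. The 12 WT libraries lie at a tilt of -0.58 to -0.13, 11 CryKO libraries at 0.18 to 0.44, and CryKO ZT20 replicate 1 lies alone at -0.59 and 14.4%.

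The summed mRNA level of each targeted gene was lower in CryKO but was not absent. Cry1 (chr10:85131700-85185064, minus strand, GRCm38) was measured at 7.05 to 11.7 CPM in CryKO (median 9.19) and at 6.66 to 55.7 CPM in WT (median 22.3). The ranges overlap because Cry1 in WT passed through a trough of 6.97 CPM at ZT8 on its way to a peak of 49.7 CPM at ZT20, both means of 2 libraries. Cry1 fell by 1.12 on the log2 scale (SE 0.26, adjusted p = 0.0015), and its pre-mRNA moved the other way, from a median of 16.0 CPM in WT to 73.4 CPM in CryKO (log2 difference 1.66, adjusted p = 0.0031). Cry2 (chr2:92403646-92434043, minus strand) was at 12.9 to 20.99 CPM in CryKO (median 17.3) and 20.2 to 65.5 CPM in WT (median 47.4), and only the lowest WT library lay inside the CryKO range. It fell by 1.32 on the log2 scale (SE 0.13, adjusted p = 1.39e-07). Of its 2 measured transcripts, the minor one (ENSMUST00000125488) ran the other way, at 13.45 to 95.96 estimated counts in CryKO and 2.8 to 46.1 in WT, with overlap and without a test. Since counts are summed over whole transcripts, a level in CryKO includes any transcript that carries the deletion.

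A large share of the genes measured differed between genotypes, most of them by little. With time as a factor, 5723 of 11722 genes (48.8%) passed an adjusted p of 0.05, of which 2655 (22.6%) were higher and 3068 (26.2%) lower in CryKO. The median size of a called difference was 0.39 on the log2 scale, and 66.5% of the calls were smaller than 0.5. A difference of over 1 on the log2 scale was called for 218 genes upward and 242 genes downward, and 3964 called genes were on the same side of WT at all 6 times. Many of the small differences followed GC content: in the lowest GC quartile 1461 genes were higher and 69 lower, and in the highest 57 were higher and 1910 lower. On GC-adjusted levels 1599 genes (13.6%) were higher and 1699 (14.5%) lower. These held 2518 of the 5723 calls in the same direction, and 421 of the 460 calls of over 1 on the log2 scale. A further 607 of the 5723 calls had the opposite sign on GC-adjusted levels, 32 of them called there. Without CryKO ZT20 replicate 1, 28.4% of genes were higher and 28% lower, and without the 3 WT libraries of high acute phase level 20.0% and 24.9%.

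No core clock gene passed the test of a 24 h rhythm in CryKO, and several repressors stood near the level of their WT peak. The 11 repressors measured include the targeted genes Cry1 and Cry2. Over the day 7 were higher and 3 lower (median log2 difference 1.07, against 0.00 over all genes tested). The 3 lower were Cry1 and Cry2 themselves and Nfil3. All 11 had a 24 h rhythm in WT (13.7% of all genes) but none in CryKO (0.341%). Ciart, a small repressor of BMAL1 and CLOCK also called CHRONO, was at 23.9 to 38.6 CPM in all CryKO libraries (median 32.5), while WT ranged from 0.0960 to 33.9 CPM (median 2.82). The CryKO values lay near the WT peak at ZT12, a mean of 26.9 CPM, and the all-day difference was 3.01 (SE 0.59, adjusted p = 0.000317). Per3, a period gene, was at 40.4 to 69.3 CPM in CryKO and at 3.16 to 78.2 CPM in WT, with medians of 57.8 and 25.8 CPM (log2 difference 1.53, SE 0.40, adjusted p = 0.004). Per1 rose by 1.56 (SE 0.33, adjusted p = 0.000719) from a median of 33.01 to 79.9 CPM, and Per2 by 1.07 (SE 0.30, adjusted p = 0.0066) from 42.7 to 83.01 CPM. The overlap with WT in these genes came from the WT libraries near their peaks, at ZT12 for Per1 and Per3 and at ZT16 for Per2.

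Among the other repressors, Bhlhe41 (DEC2) was at 10.2 to 25.8 CPM in CryKO and 0.858 to 25.5 CPM in WT, a log2 difference of 2.21 (SE 0.42, adjusted p = 0.000239), and its paralog Bhlhe40 rose by 0.83 (SE 0.23, adjusted p = 0.0052). Nr1d2 (REV-ERB beta) was at 63.7 to 184 CPM in CryKO (median 151) against 12.3 to 142 CPM in WT (median 57.1), a rise of 1.48 (SE 0.28, adjusted p = 0.000237). Nr1d1 (REV-ERB alpha), its partner, did not pass the all-day test (log2 difference 0.96, SE 0.70, adjusted p = 0.261). It was lower than WT by 2.27 on the log2 scale at ZT8 and higher by 5.06 at ZT20, and the CryKO level of 29.1 to 80.8 CPM lay inside the WT range of 1.57 to 220 CPM. Nfil3, a repressor that binds the D-box, had an all-day difference of -0.60 (SE 0.23, adjusted p = 0.0362) that did not pass on GC-adjusted levels (adjusted p = 0.17) and passed in 12 of 24 fits that left out 1 library.

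On the activator side, Arntl was held in the middle of its daily range. CryKO libraries were at 7.42 to 16.6 CPM (median 12.1) and WT libraries at 0.927 to 36.7 CPM (median 20.7), with a WT trough of 0.980 CPM at ZT12 and a peak of 36.2 CPM at ZT0. The all-day difference was 0.02 (SE 0.49, adjusted p = 0.973), but the difference changed over the day (interaction adjusted p = 1.58e-06), from -1.79 at ZT0 to 3.66 at ZT12. Clock (adjusted p = 0.975) and Rora (adjusted p = 0.917) did not pass the test. Both were lowest in CryKO ZT20 replicate 1, at 15.8 and 40.8 CPM.

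**Figure D2:**
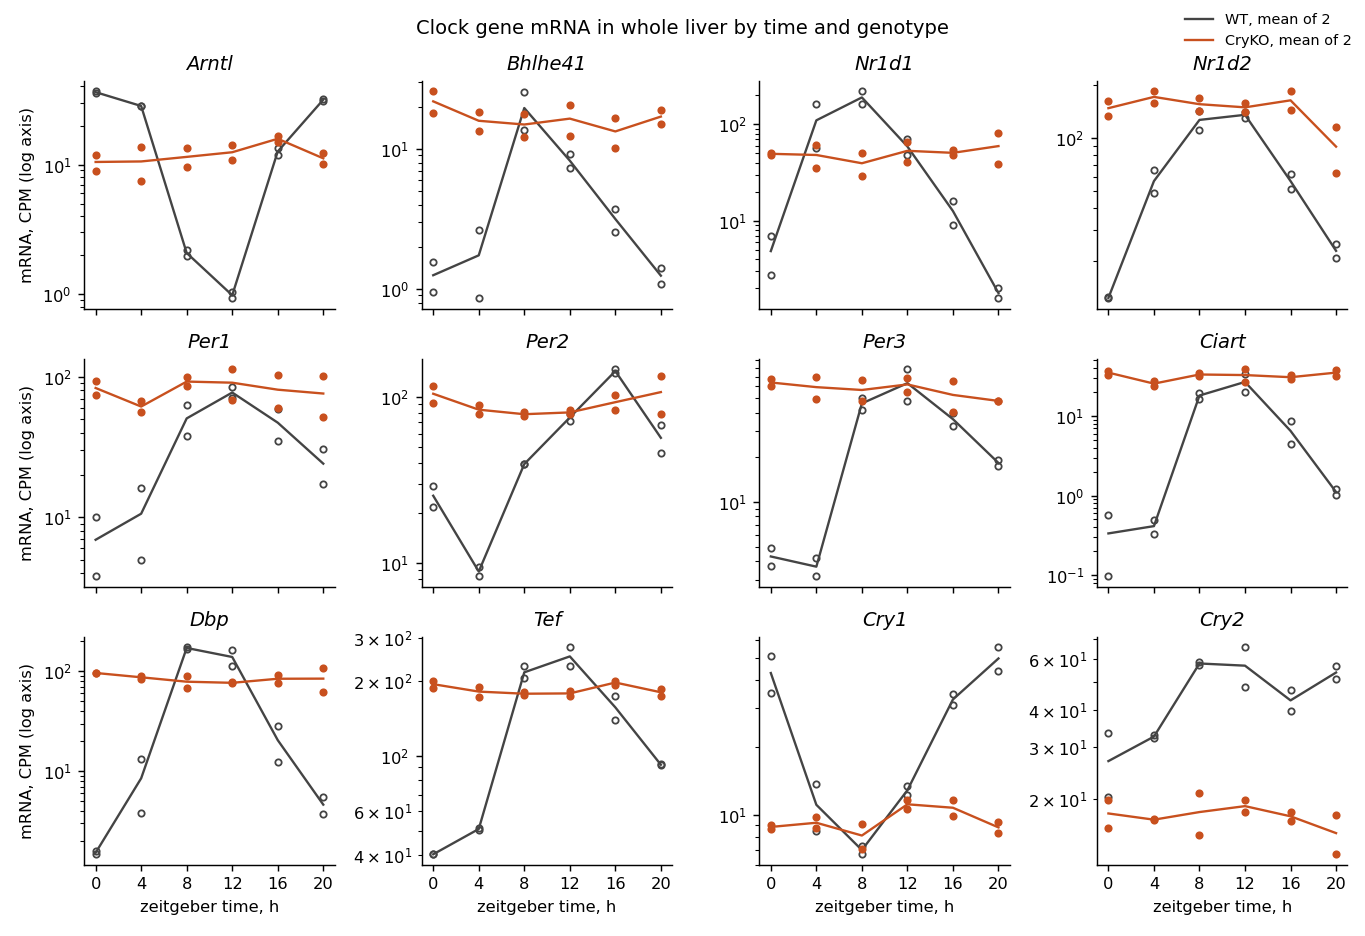
Level of 12 clock gene mRNAs (CPM, log axis) against zeitgeber time (h), with 1 point per library and a line through the mean of the 2 libraries, open and grey for WT, filled and orange for CryKO. WT genes swing over the day while CryKO levels vary less, Arntl inside the WT range and Ciart at 23.9 to 38.6 CPM, near the WT peak mean of 26.9 CPM.

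All 3 PARbZip factors had a 24 h rhythm in WT and none passed that test in CryKO, and the curves differed between genotypes for each (adjusted p of at most 0.0179). Dbp was at 61.4 to 107.5 CPM in CryKO (median 86.8) and swung from 1.47 to 173 CPM in WT (median 12.8), with an all-day difference of 2.23 (SE 0.70, adjusted p = 0.0127). Tef was at 173 to 202 CPM in CryKO and 40.1 to 274 CPM in WT (log2 difference 0.76, SE 0.24, adjusted p = 0.0142), the narrowest CryKO range of the 3. Hlf was at 80.7 to 116.2 CPM against 30.7 to 104.2 CPM (log2 difference 0.82, SE 0.13, adjusted p = 3.87e-05). Without the 3 WT libraries of high acute phase level, which leaves single WT libraries at ZT4, ZT16 and ZT20, Dbp (adjusted p = 0.12) and Tef (adjusted p = 0.072) did not pass and Hlf did (adjusted p = 0.00053).

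Of 26 clock output genes of the liver, 24 had a rhythm in WT and 1, St3gal5, in CryKO, against 13.7% and 0.341% of all genes. Over the day 11 were higher and 1 lower (median log2 difference 0.42), and the share called, 46.2%, was close to the 48.8% of all genes. Usp2, a deubiquitinase, was at 68.03 to 98.1 CPM in CryKO and 3.32 to 121 CPM in WT, with medians of 87.1 and 26.9 CPM, and rose by 1.72 (SE 0.41, adjusted p = 0.0018). Wee1, a mitotic kinase, rose by 1.43 (medians 12.2 and 26.1 CPM), Coq10b, which serves coenzyme Q, by 1.28 (17.5 and 42.1 CPM), and Nampt, the enzyme of NAD salvage, by 0.85 (46.4 and 106.7 CPM). Rgs16, a regulator of G protein signalling, rose by 3.29 (SE 0.68, adjusted p = 0.000522), with 0.135 to 138 CPM in WT and 12.6 to 215.5 CPM in CryKO. Its fitted trough-to-peak range was 2.75 on the log2 scale in CryKO, where the test of a rhythm did not pass (adjusted p = 0.2817), and 7.46 in WT. Ppard, a nuclear receptor of lipid metabolism, was the one output gene that fell. It was at 6.05 to 9.26 CPM in CryKO and at 7.35 to 73.7 CPM in WT, near the WT trough at all times (fall of 1.5 on the log2 scale, SE 0.24, adjusted p = 4.23e-05).

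Across all genes, 1608 (13.7%) had a 24 h rhythm in WT and 40 (0.341%) in CryKO, 19 of them in both. The median trough-to-peak range of the 1608 genes was 0.75 on the log2 scale in WT and 0.30 in CryKO, a value that the choice of the genes in WT favours. The test of the difference of the curves itself called 221 genes (1.89%), and 201 of these had the larger range in WT. Without any assumption on shape, the genotype difference varied over the day in 54 genes (0.461%), of which 52 were rhythmic in WT and 53 had the larger range there. St3gal5, which makes the ganglioside GM3, and Eif4ebp3, an inhibitor of translation initiation, kept a rhythm in CryKO (adjusted p = 0.0094 and 0.017) while still differing from WT. Eif4ebp3 had a range of 1.80 in WT and 1.76 in CryKO, and its genotype difference ran from -0.79 at ZT16 to 2.82 at ZT8. In simulated data, genes were given a 24 h curve in WT and none in CryKO, with 2 libraries per time. The interaction test found 42 of 50 genes with a WT range of 3 on the log2 scale but 3 of 50 with a range of 1. The test of the curves found 44 and 12 of 50, so most simulated ranges of 1 were missed. The simulation changed few genes and had no GC tilt, so its rates may differ from those in the data.

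**Figure D3:**
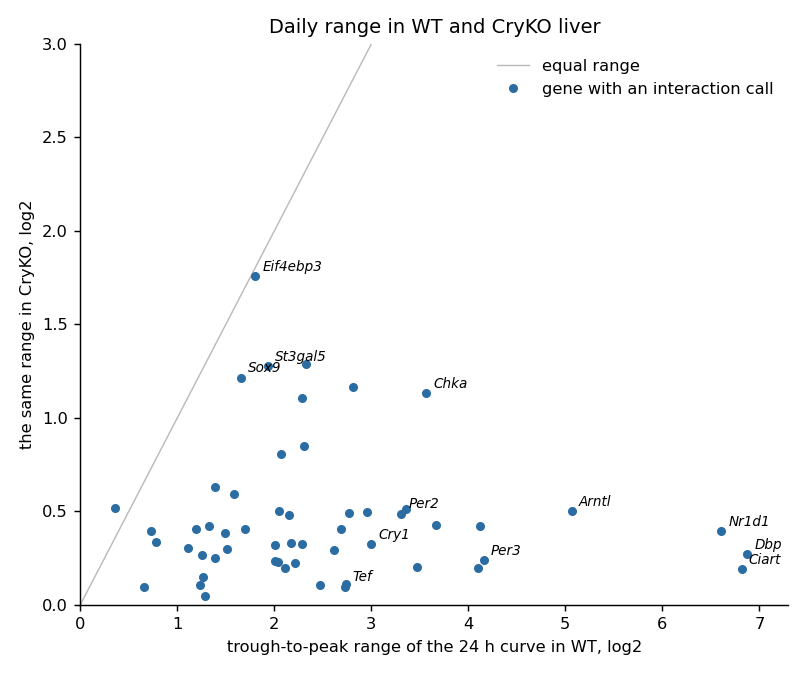
Trough-to-peak range of the fitted 24 h curve in WT (log2, horizontal axis) and in CryKO (log2, vertical axis) for the 54 genes whose genotype difference varied over the day, 1 point per gene, with a line of equal range. All but 1 point lie below the line. Dbp, Ciart and Nr1d1 have the widest WT ranges and Eif4ebp3, at 1.80 and 1.76, lies close to the line.

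The 12 largest rises and 12 largest falls on 1 side of WT at all 6 times were in genes of several kinds, enzymes, secreted proteins and receptors among them, and include Ciart and Rgs16 described above. Cyp4a14, a fatty acid omega-hydroxylase, was at 134 to 899 CPM in CryKO (median 364) and 0.917 to 70.2 CPM in WT (median 4.87). The groups did not overlap, as in 1.22% of all genes in that direction, and the difference was 5.30 (SE 0.66, adjusted p = 2.97e-06). Its neighbour Cyp4a10, of the same function, was at 532 to 1275 CPM in CryKO and 6.91 to 217 CPM in WT (log2 difference 3.97, SE 0.45, adjusted p = 8.18e-07), again without overlap. Lepr, the leptin receptor, was at 5.70 to 77.3 CPM in CryKO (median 31.5) and 1.05 to 4.62 CPM in WT (median 2.78), a rise of 3.61 (SE 0.30, adjusted p = 2.36e-08). The lowest CryKO library still lay above the highest WT library. Osbpl3, an oxysterol-binding protein, rose by 3.05 from a median of 1.97 to 18.4 CPM, and the acyl-CoA thioesterase Acot3 by 3.23 from 1.49 to 17.8 CPM, the first without overlap and the second with it.

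Several of the other largest rises are members of families of near-identical genes, whose counts the estimation may have shared among copies. Nat8f3 (log2 difference 4.29) and Nat8f7 (3.96), acetyltransferases of a cluster on chromosome 6, did not overlap between genotypes, and Nat8 of the same cluster rose by 1.43. Cyp2c69 (3.23) and Cyp2c40 (2.96), cytochromes P450 on chromosome 19, varied widely within CryKO, from 4.12 to 177 CPM and from 21.8 to 528 CPM. Dsg1c, a desmoglein outside these families, rose by 2.94 from a median of 6.54 to 61.1 CPM, without overlap.

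The falling side included several genes known for high levels in males. Mup8, a major urinary protein (a pheromone carrier), was at 3.46 to 32.5 CPM in CryKO (median 16.8) and at 94.2 to 985 CPM in WT (median 288), a fall of 4.52 on the log2 scale (SE 0.39, adjusted p = 3.58e-08). The groups did not overlap, as in 2.31% of all genes in that direction. Mup17, Mup19 and Mup18 fell by 3.79, 3.18 and 3.16, with overlap at the edges. Mup15 was listed at 0 in 11 of 12 CryKO libraries, at 224 CPM in the other, and at 0 in 1 WT library against up to 1066 CPM in the rest. It reached the count filter with just the 12 libraries required, nearly all of them WT. A fit that left out any of these did not test it. That it entered and passed in 12 of 24 such fits therefore follows from the filter, and no fold is given. C4a, which encodes the sex-limited protein, a relative of complement C4, was at 1.43 to 37.5 CPM in CryKO and 57.6 to 254 CPM in WT, a fall of 3.28 (SE 0.34, adjusted p = 3.93e-07). Its reads may be shared with C4b.

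The remaining large falls were in genes of separate functions. Moxd1, a copper monooxygenase, was at 0 to 7.13 CPM in CryKO and 0.245 to 134 CPM in WT, with medians of 0.533 and 52.5 CPM (fall of 4.88, SE 0.83, adjusted p = 8.05e-05). Ddah1, which degrades asymmetric dimethylarginine, was at 2.87 to 37.2 CPM in CryKO and 68.98 to 187 CPM in WT, a fall of 2.91 (SE 0.32, adjusted p = 7.03e-07). Naa80, the acetyltransferase of actin, fell by 3.05 and Cadm4, an adhesion molecule, by 2.66, and neither overlapped between genotypes. Ugt2b38, a glucuronosyltransferase, fell by 2.72, and Isyna1, the enzyme of inositol synthesis, by 2.57. Isyna1 was highest in the 3 WT libraries of high acute phase level (19.7 to 129 CPM, against 4.82 to 14.2 CPM in the other 9) and fell by 1.95 without them.

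**Figure D4:**
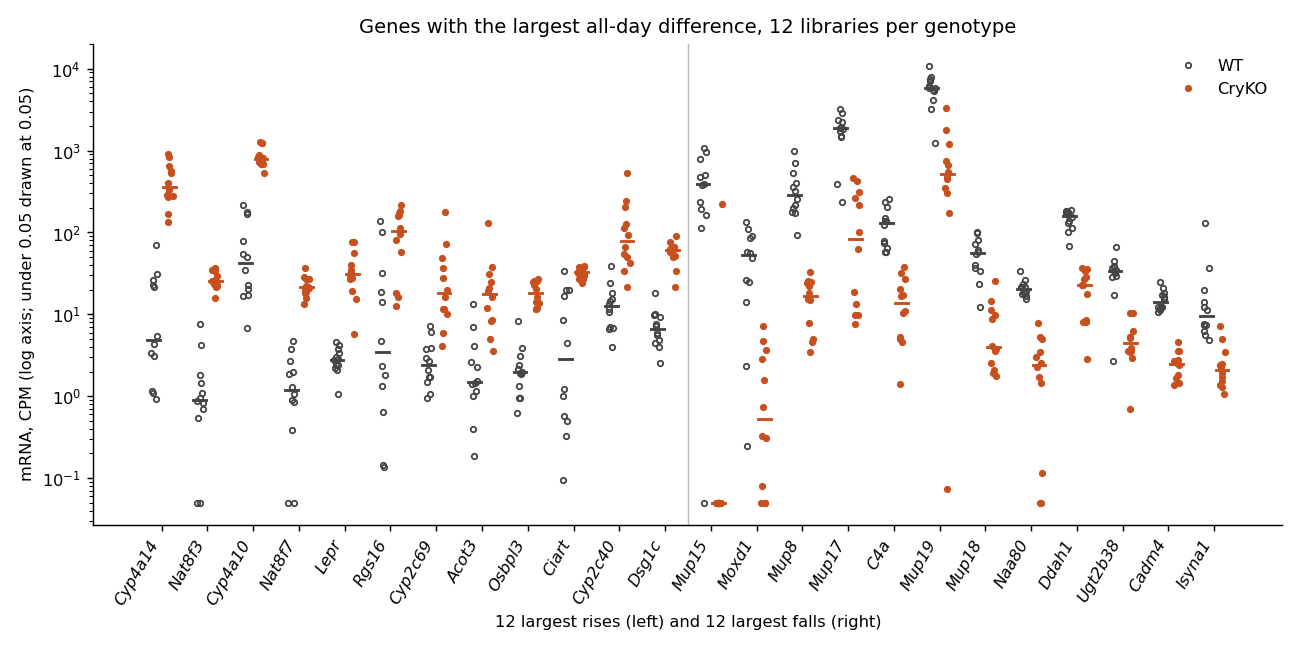
Levels (CPM, log axis, values under 0.05 drawn at 0.05) of the 12 genes with the largest rise and the 12 with the largest fall, 1 point per library, open and grey for WT, filled and orange for CryKO, with bars at the medians. Cyp4a14 lies at 134 to 899 CPM in CryKO and 0.917 to 70.2 CPM in WT, and Mup8 at 3.46 to 32.5 CPM and 94.2 to 985 CPM.

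Sex differences of liver mRNA are set in rodents mainly by the pattern of growth hormone release acting through STAT5. Of 22 female-biased genes tested, 18 were higher and none lower in CryKO (median log2 difference 1.14), against 22.6% and 26.2% of all genes. The list held 45 genes and the others were not measured, so these counts cover only a part of it. Whether the absence of the others favours rises was not tested. Here and in the lists that follow, 48.8% of all genes were called in either direction, and a list with a share near or under that is described by its genes only. GC-adjusted counts stand against other shares of all genes: 13.6% higher, 14.5% lower and 28.1% in either direction. Cyp17a1, a steroid hydroxylase, rose by 1.61 (medians 5.94 and 17.98 CPM), Rtn4, a reticulon, by 1.17 (29.9 and 65.2 CPM), Nipal1, a magnesium transporter, by 2.16 (2.54 and 11.3 CPM) and Fmo2, a flavin monooxygenase, by 1.07 (12.7 and 20.9 CPM). The list shares Cyp4a10, Cyp4a14, Acot3, Acot4 and Cd36 with the list of fatty acid oxidation and PPAR alpha targets described below. The GC-adjusted fit called 16 higher and none lower, with Prlr, the prolactin receptor (0.82), no longer passing (adjusted p = 0.074). Abcd2 (0.69), Akr1c14 (0.30), Tox (-0.32) and Sult2a7 (-0.58) did not pass in the first place.

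Of 32 male-biased genes, 12 were lower and 2 higher (median log2 difference -0.37), a share called of 43.8% that is under that of all genes. The GC-adjusted fit called 13 lower and 1 higher (median log2 difference -0.51). Its share called was again 43.8%, against 28.1% of all genes called and 14.5% lower. Selenbp2, a selenium-binding protein, was at 75.9 to 710 CPM in CryKO (median 349) and 326 to 2335 CPM in WT (median 1143), a fall of 1.74 (SE 0.33, adjusted p = 0.000212). Gstp1, a glutathione transferase, fell by 0.99 (medians 1166 and 580 CPM), Serpina1e, a protease inhibitor, by 0.79 and the complement component C6 by 0.83. Several known male-biased genes did not pass, among them Cyp4a12a (log2 difference -0.42), Mup20 (-0.08), Slco1a1 (0.64) and Elovl3 (0.41). Nat8, also on this list, rose. Among 13 genes of growth hormone signalling, 3 were lower (Socs3, Igfals and Stat5a) and 2 higher (Lepr and Prlr). Socs3, a feedback inhibitor of cytokine signalling, fell by 1.42 and by 0.90 without the 3 WT libraries, where it was at 27.1 to 61.6 CPM. Igfals, which binds IGF1 in serum, had medians of 71.1 CPM in CryKO and 120.2 CPM in WT (fall of 0.81, SE 0.14, adjusted p = 0.00014), Stat5a fell by 0.50, and Ghr (0.16) and Igf1 (0.10) did not pass, the latter at -0.22 on GC-adjusted levels (adjusted p = 0.0212).

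PPAR alpha is the receptor that switches on fatty acid oxidation in fasting. Its targets were read in 1 list together with genes of fatty acid oxidation, so not every member is a target. Of the 30 genes tested, 16 were higher and 1, Ucp2, was lower, against 22.6% and 26.2% of all genes. The other 13 did not pass (median log2 difference 0.46). The GC-adjusted fit called 18 higher and none lower. Ehhadh, an enzyme of peroxisomal oxidation, was at 319 to 634 CPM in CryKO (median 441) and 103.01 to 286 CPM in WT (median 246), without overlap, and rose by 1.01 (SE 0.14, adjusted p = 1.3e-05). Acot4 rose by 1.4, Acot2 by 1.78 and Acot1 by 1.5, all thioesterases in a cluster of related genes. Cpt1a, the gate of mitochondrial oxidation, rose by 0.45 (medians 364 and 545 CPM). Ppara itself (0.27), Fgf21 (-0.24), Fabp1 (-0.30) and Plin2 (0.11) did not pass. The 3 WT libraries of high acute phase level had the lowest Ehhadh values, 103.01 to 148 CPM. Without them Ehhadh rose by 0.82, Cyp4a10 by 3.65 and Cyp4a14 by 5.31, and the median log2 difference of the list was 0.38.

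The receptors CAR and PXR induce enzymes of drug metabolism. Of 21 genes of this list tested, 12 were higher and 4 lower (76.2% called, median log2 difference 0.48, 0.24 on GC-adjusted levels). Cyp3a11, the main CYP3A of mouse liver, was at 1094 to 2851 CPM in CryKO (median 2228) and 45.1 to 830 CPM in WT (median 555), without overlap, and rose by 2.16 (SE 0.28, adjusted p = 4.52e-06). Cyp2c54, Cyp2c50 and Cyp2c37, neighbours on chromosome 19, rose by 2.11, 1.37 and 1.52, the first from a WT range of 78.5 to 200.3 CPM to 309 to 820 CPM. Nr1i3, which encodes CAR, rose by 1.03 (medians 112.2 and 227 CPM), while Nr1i2, which encodes PXR, had a difference of 0.13 and did not pass. Cyp2c55, Gstm2, Gstm3 and Cyp2a5 fell by 1.32, 1.06, 0.94 and 0.90. The lowest Cyp3a11 values, 45.1 to 290 CPM, were again in the 3 WT libraries, and Cyp3a11 rose by 1.87 without them. Of 12 NRF2 targets, 4 were higher and 2 lower, close to the share called of all genes. Gsta2, a glutathione transferase, was at 24.7 to 79.9 CPM in CryKO and 0.993 to 20.4 CPM in WT, without overlap, and rose by 2.24 (SE 0.30, adjusted p = 5.79e-06; 1.92 without the 3 libraries).

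In bile acid synthesis, 6 of 18 genes were higher and 2 lower (44.4% called, under the 48.8% of all genes, median log2 difference 0.13). Cyp8b1, the 12-alpha-hydroxylase that sets the makeup of bile acids, was at 306 to 833 CPM in CryKO (median 596) and 22.03 to 455 CPM in WT (median 332), a rise of 1.06 (SE 0.30, adjusted p = 0.0059). Cyp7a1, the rate-limiting enzyme, was at 137 to 431 CPM and 92.8 to 238 CPM, and its rise of 0.77 (SE 0.17, adjusted p = 0.000847) did not pass on GC-adjusted levels (log2 difference 0.38, adjusted p = 0.094). Akr1d1, a reductase of the pathway, rose by 0.66 and Baat, which conjugates bile acids, by 0.55, while Hsd3b7 fell by 0.42 and Abcb11, the bile salt export pump, by 0.32. Of 26 genes of cholesterol synthesis and uptake, 4 were higher, among them Msmo1, Ggps1 and Stard4, and 2 lower (Srebf2 and Tm7sf2), and on GC-adjusted levels 1 gene of the list passed, none of the 5 named here, with Srebf2 at 0.11 in place of -0.20.

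Of 12 glucocorticoid receptor targets tested, 6 were higher, none was lower and 6 did not pass (median log2 difference 0.62), in the GC-adjusted fit as well. Before the adjustment the share called, 50%, was close to that of all genes, of which 22.6% were higher. On GC-adjusted levels it was again 50%, against 28.1% of all genes called and 13.6% higher. G6pc, the last step of glucose release, was at 103.2 to 1015 CPM in CryKO (median 464) and 55.4 to 347 CPM in WT (median 179), with a rise of 1.20 (SE 0.26, adjusted p = 0.000781). Pck1, the first committed step of gluconeogenesis, was at 994 to 4408 CPM and 351 to 4060 CPM, with medians of 2557 and 992 CPM, and rose by 0.99 (SE 0.30, adjusted p = 0.0093). Both ranges overlapped with WT. Tsc22d3 (GILZ) rose by 0.78, Fkbp5, a co-chaperone of the receptor, by 0.73, Zbtb16 by 0.63 and Sgk1 by 0.61. Tat, Klf9, Dusp1, Ddit4 and Errfi1 ranged from -0.29 to 0.14 and did not pass, and neither did Igfbp1 (1.33). Of 23 genes of gluconeogenesis and amino acid catabolism, 10 were higher and 3 lower (56.5% called). Aass, of lysine breakdown, was at 448 to 631 CPM in CryKO and 257 to 340 CPM in WT, without overlap, and rose by 0.86 (SE 0.07, adjusted p = 8.07e-09).

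The lipogenic regulators Srebf1 and Mlxipl were lower while the synthases did not pass. Of 22 genes of glycolysis and lipogenesis, 4 were higher and 4 lower (median log2 difference -0.07, and 0.11 on GC-adjusted levels). Srebf1, the transcription factor SREBP1, was at 105.5 to 474 CPM in CryKO (median 230.3) and 283 to 818 CPM in WT (median 466), a fall of 0.96 (SE 0.21, adjusted p = 0.000819). Me1, malic enzyme, fell by 1.21 from a median of 236 to 99.8 CPM, and Mlxipl (ChREBP) by 0.52, the latter not passing on GC-adjusted levels (adjusted p = 0.09). Fasn (-0.23, and 0.11 on GC-adjusted levels), Acaca (-0.01), Acly (-0.32) and Scd1 (-0.32) did not pass. Elovl5, a fatty acid elongase, rose by 0.98 (SE 0.21, adjusted p = 0.000777). Of 17 genes of insulin and IGF signalling, 4 were higher and 4 lower, and 2 and 1 on GC-adjusted levels. Akt1 and Akt2, kinases of that pathway, fell by 0.33 and 0.18 and had values of 0.06 and 0.02 after the adjustment.

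Acute phase proteins, made by the liver in inflammation, had a median log2 difference of -0.40, with 3 of 12 lower and 1 higher. Hpx, the haem carrier, was at 1753 to 5360 CPM in CryKO (median 2556) and 2670 to 34041 CPM in WT (median 4067), a fall of 1.03 (SE 0.32, adjusted p = 0.0124). The highest WT values, 9963 to 34041 CPM, were those of the 3 libraries. Without them the median difference of the list was 0.02, Hpx fell by 0.43 and Lbp, which binds endotoxin, had a log2 difference of -0.20. These libraries were chosen by the summed level of this same list, and in WT alone. A smaller fall of the list without them follows from that choice and is no separate result. Of 29 interferon-stimulated genes 9 were lower and 4 higher, a share called of 44.8% that is under the 48.8% of all genes. Bst2, an antiviral membrane protein, was at 45.1 to 75.3 CPM in CryKO and 79.04 to 120.4 CPM in WT, without overlap (fall of 0.91, SE 0.08, adjusted p = 8.42e-08). Irf7 fell by 1.0, Isg15 by 0.90 and Oasl1 by 0.87, whereas Gbp2 rose by 0.87 and Ifit1 (-0.11) and Rsad2 (-0.13) did not pass.

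In antigen presentation the class I and class II genes went apart. Of 18 tested, 9 were lower and 5 higher. H2-Q10, a secreted class I molecule of the liver, was at 1038 to 1426 CPM in CryKO and 1521 to 2495 CPM in WT, without overlap, a fall of 0.79 (SE 0.07, adjusted p = 8.74e-08), and the peptide transporter genes Tap1 and Tap2 fell by 0.55 and 0.46. The class II genes H2-Aa, H2-Eb1 and Cd74 rose by 0.82, 0.58 and 0.59, and their regulator Ciita by 0.40. On GC-adjusted levels 4 were lower and 6 higher, and Tap2 (adjusted p = 0.34) and H2-D1 (0.061) no longer passed. The class I genes are close paralogs whose reads may be shared.

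Of 21 genes of the unfolded protein response, 9 were lower and 2 higher (median log2 difference -0.22), and 9 and none on GC-adjusted levels. Sdf2l1, a cofactor of the chaperone BiP, was at 10.3 to 46.1 CPM in CryKO (median 20.1) and 17.4 to 72.4 CPM in WT (median 51.4), a fall of 1.07 (SE 0.16, adjusted p = 2.16e-05). Xbp1, the factor of that response, fell by 0.43 and Asns, asparagine synthetase, by 1.69 (adjusted p = 0.051 on GC-adjusted levels). Canx, a chaperone, rose by 0.26 and was at 0.01 on GC-adjusted levels. Of 19 heat shock genes, 3 were higher and 4 lower, with a fall of 1.07 in Hspb1 and of 0.77 in Bag3 and a rise of 0.63 in Rbm3, a cold-inducible RNA-binding protein. Of 17 immediate early genes 5 were lower, and on GC-adjusted levels only Jund. Jund, a subunit of AP-1, was at 13.7 to 25.4 CPM in CryKO and 32.8 to 51.9 CPM in WT and fell by 1.11 (SE 0.10, adjusted p = 4.29e-08), or by 0.36 on GC-adjusted levels. Ier2 fell by 0.41 and was at 0.04 after that adjustment.

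Of 22 cell cycle genes, 6 were higher and 6 lower, a share called of 54.5% near the 48.8% of all genes. Ccnd1 (cyclin D1) was at 11.2 to 36.8 CPM in CryKO (median 16.7) and 16.5 to 80.4 CPM in WT (median 43.5), a fall of 1.23 (SE 0.23, adjusted p = 0.000243). Cdkn1a (p21) fell by 2.03, from a median of 5.56 to 0.864 CPM, and the replication factors Mcm2 and Mcm6 by 0.69 and 0.78, while Ccne2 (cyclin E2) rose by 1.43 and Ccnd2 by 0.44. Of 40 cytosolic ribosomal protein genes 11 were higher and 4 lower, and 21 and 1 on GC-adjusted levels. Rpl24 was at 86.3 to 117.6 CPM in CryKO and 50.5 to 67.6 CPM in WT, without overlap (log2 difference 0.71, SE 0.05, adjusted p = 6.05e-09). Of 33 respiratory chain genes 9 were higher and 5 lower (4 and 3 on GC-adjusted levels), with the largest called fall in Cox8a (0.56) and the largest called rise in Cycs (0.52), which did not pass on GC-adjusted levels (adjusted p = 0.17). Among 13 kinases and ubiquitin ligases of the clock, 2 were higher (Usp2 and Csnk2a1) and 2 lower (Csnk2b and Csnk1d), the last by 0.11, with a GC-adjusted value of 0.00.

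Markers of the lobule and of cell types were read from the same libraries. In whole tissue, fewer cells of a type and less RNA per cell cannot be told apart. Of 20 pericentral genes 7 were lower and 2 higher, with falls of 0.87 in Cyp1a2 (medians 595 and 314 CPM) and 0.72 in the ammonium transporter Rhbg, whereas Glul (-0.05) and Cyp2e1 (0.19) did not pass. Of 20 periportal genes 2 were higher (Pck1 and Cps1) and 2 lower, Serpina12 by 1.36 and Sult5a1 by 0.91. The summed level of 13 sinusoidal endothelial markers was 499 to 799 CPM in WT (mean 663 ± 99.5, SD, n = 12) and 739 to 967 CPM in CryKO (mean 875 ± 62.9, SD, n = 12), and was higher in CryKO (exact permutation test, two-sided, p = 4.29e-05, the smallest that these permutations can give, adjusted p = 0.000515 over 12 measures). Of the 13 markers 9 were higher and none lower (11 and none on GC-adjusted levels), among them Lyve1 (1.12), Fcgr2b (0.73), Mrc1 (0.67), Oit3 (0.56) and Stab2 (0.43).

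The summed level of 4 cholangiocyte markers tested was lower, at 26.5 to 44.7 CPM in CryKO against 33.8 to 90.1 CPM in WT (exact permutation test, p = 0.0013, adjusted p = 0.0052). That sum moved with Sox9, a factor of bile duct and progenitor cells, which was at 2.21 to 9.18 CPM in CryKO and 4.80 to 37.4 CPM in WT and fell by 1.62 (SE 0.24, adjusted p = 2.16e-05), while Epcam (0.23), Muc1 (-0.14) and Spp1 (-0.22) did not pass, the last passing on GC-adjusted levels (-0.43, adjusted p = 0.0272). Sums for hepatocyte, Kupffer cell, stellate, lymphocyte, neutrophil, erythroid, and pancreas and adipocyte markers had exact p of 0.0656 to 0.657. Among hepatocyte markers Alb (0.31) and Hnf4a (-0.07) did not pass, and Apoa1 fell by 0.60 and Ahsg by 0.22 (adjusted p = 0.087 on GC-adjusted levels). Among 11 stellate and fibroblast genes 3 were higher and 3 lower, the collagen genes Col1a1 by 1.19, Col3a1 by 0.62 and Col1a2 by 0.55 (2 and 2 on GC-adjusted levels). Albumin, the defining hepatocyte product, had a median of 56409 CPM in WT. The part of cell composition in the differences of other genes was not tested.

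**Figure D5:**
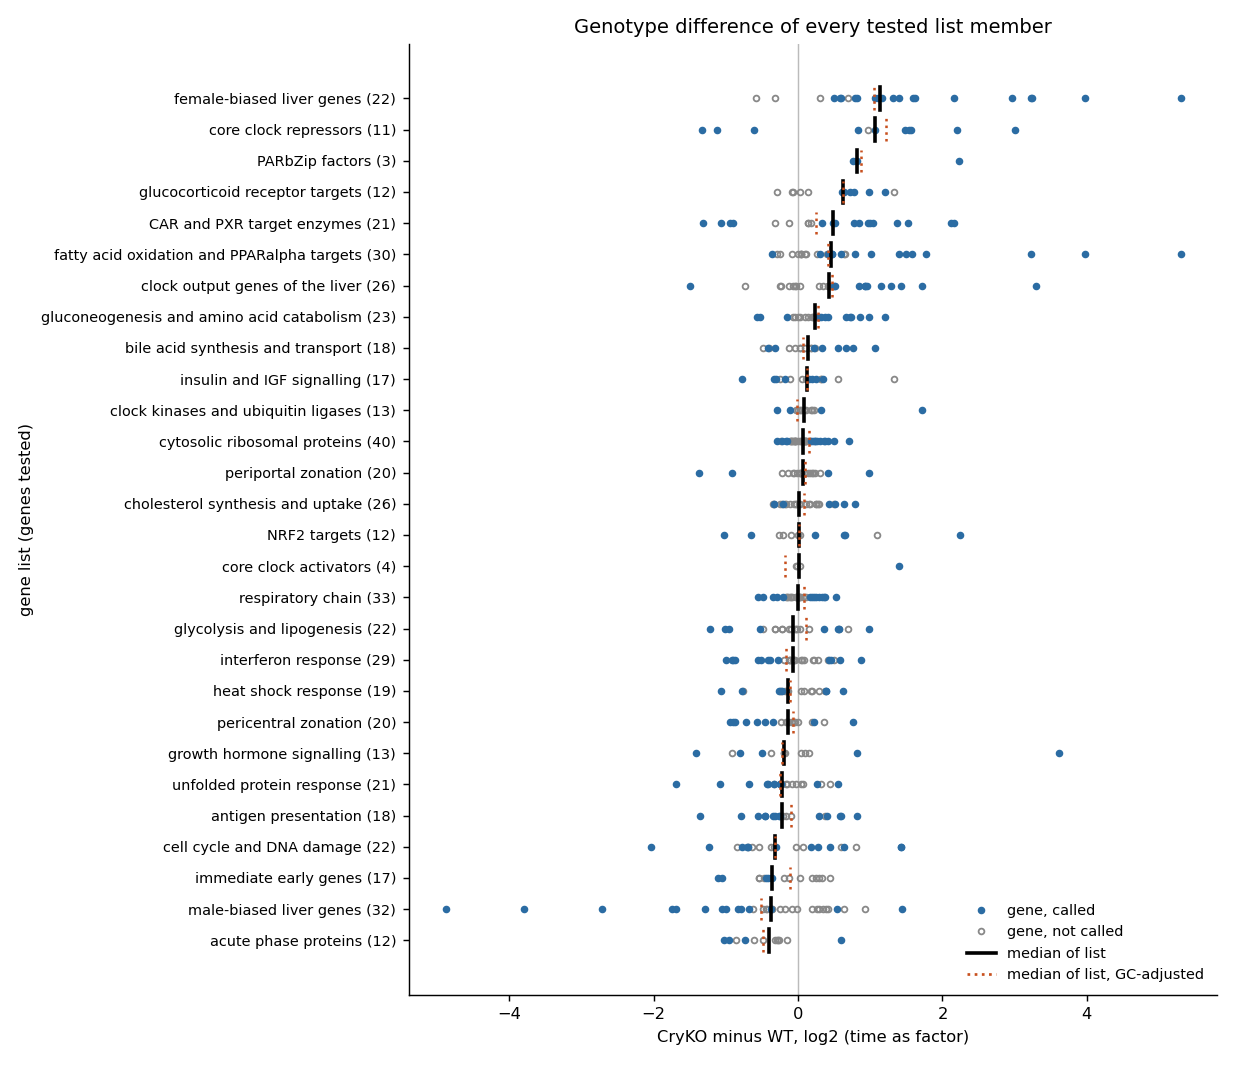
Genotype difference (log2, CryKO minus WT, horizontal axis) of each tested member of the gene lists, apart from cell type markers and sex chromosome genes. The lists are on the vertical axis, with the number tested in brackets. Points are filled where called. The median of each list is a solid bar and its median on GC-adjusted levels a dotted bar. Female-biased liver genes have a median of 1.14 and acute phase proteins of -0.40, and single genes reach 5.30 (Cyp4a14) and -4.88 (Moxd1).

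Taken time by time, with 2 libraries against 2 and a spread pooled over all 12 groups, the number of called genes was highest in the light phase. It was 842 at ZT0 (7.18%), 2011 at ZT4 (17.2%), 1707 at ZT8 (14.6%), 1001 at ZT12 (8.54%), 738 at ZT16 (6.3%) and 136 at ZT20 (1.16%). The time with the fewest calls is the one with CryKO ZT20 replicate 1, without which the counts were 1598, 3242, 2947, 1809, 1648 and 767. The ZT4 count fell to 620 without WT ZT4 replicate 1, the library of highest acute phase level, and by a similar amount without either CryKO library of that time (636 and 741), while it was 1721 without WT ZT4 replicate 2. The counts were thus tied to single libraries and no difference between times was tested.

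The pre-mRNA of the same libraries gave 900 genes higher (8.43%) and 362 lower (3.39%) of 10675 tested, with a median log2 difference of 0.15. This fit scaled by mRNA and pre-mRNA counts together and did not correct for the share of pre-mRNA. That share had a mean of 25.2% in WT and 31.2% in 11 CryKO libraries, so the excess of rises is not read as a result. Pre-mRNA CPM values, here and for Cry1, are scaled by mRNA counts instead. Side by side with the mRNA values above, pre-mRNA differences were 3.46 for Ciart, 1.96 for Per3, 1.51 for Per1, 1.36 for Nr1d2, 1.29 for Tef and 1.25 for Per2, all called, and -0.86 for Ppard, also called. Dbp (1.61) and Bhlhe41 (1.92) did not pass at this level, where their WT medians were 4.43 and 0.405 CPM.

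Genes near the deleted loci may carry sequence of another strain, and were counted for that reason. Within 10 Mb of Cry1, 58.6% of 203 tested genes were called, 30 higher and 89 lower, against 48.8% of all genes with a position, and 31% against 28.1% on GC-adjusted levels. Within 10 Mb of Cry2 it was 32 of 66 (48.5%). In bins of 10 Mb, high shares of genes that differed by over 1 on the log2 scale were found on chromosome 4 from 60 to 70 Mb, the region of the Mup genes, with 13 of 45 (28.9%), and on chromosome 13 from 20 to 30 Mb with 16 of 72 (22.2%), against 3.88% of all genes with a position. These shares are descriptions, and strain was not tested.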

How the data were processed

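Per the labels and the study's methods, the authors sequenced ribosome-depleted, stranded total RNA of 24 liver samples. They made the deposited estimated counts with kallisto 0.46.0 on a joint index of mRNA and pre-mRNA, summed per gene. The index held sequences of GRCm38 and of rat, because RNA of male rat liver had been added as a spike-in that the authors did not use. Whether reads of rat RNA were counted for mouse genes was not tested. Reads of near-identical genes (Mup, Nat8f, Cyp2c, Cyp4a, C4 and H2 families) are shared among copies by estimation, and reads of pre-mRNA are kept apart from mRNA. Here the estimated counts were rounded to whole numbers. Of 12383 rows, 131 repeats were merged and 12252 kept, of which 25 hold the values of another symbol and each counts as a gene. Nlrp12, kept under 2 identifiers, counts as 2 of the rhythms in CryKO and of the rhythm differences. A further 192 columns of other RNA populations were not used.

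The 11722 genes that reached 10 counts in 12 or more libraries were tested with edgeR 4.0.16 (R 4.3.3), with TMM normalization, the quasi-likelihood test and Benjamini-Hochberg adjustment at 0.05 over all genes tested, and every adjusted p of a gene comes from these fits. The genotype difference was fitted with time as a factor, its change over the day as an interaction of 12 groups, and rhythms as curves of 24 h. Library measures were compared by exact permutation of labels within times (Python 3.11.15, scipy 1.17.1). On simulated data of 11670 genes, the genotype test found 32, 46, 48 and 49 of 50 genes changed by 0.5, 1, 2 and 3 on the log2 scale. The methods give 2 WT mice per time, and for CryKO no source says that the libraries came from separate animals, so p-values measure the spread between these samples. Replicates differed by more than sampling noise.

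GC-adjusted levels subtract from each library a smooth curve of its deviations against transcript GC content. That adjustment and the fits without CryKO ZT20 replicate 1 together with it, without the ZT20 libraries or without the 3 WT libraries of high acute phase level were chosen after seeing the data. DESeq2 1.42.0, other normalizations, filters and thresholds, a replicate block and leaving out each library were also run. The gene lists, their members and the rules were chosen with earlier results of these data known. Named genes were both Cry genes, all core clock and PARbZip genes measured, the 12 largest called rises and falls with a mean of at least 5 CPM and 1 direction at all 6 times, the 10 of smallest interaction p, and up to 4 of smallest p per list. Other list members are named with their values already in view, and the values of some genes are not reported here. Levels are in CPM and are not corrected for transcript length, so they are compared between libraries and not between genes.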

Additional observations from a re-analysis of the deposited data

Results flagged for a closer look

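In 16 of the named genes the genotype difference varied over the 6 times by the interaction test of edgeR (adjusted p under 0.05), as in 0.461% of all genes tested. The distance between the lowest and the highest of the 6 differences, on the log2 scale, was 7.33 for Nr1d1, 7.1 for Dbp, 6.35 for Ciart, 5.45 for Arntl, 4.72 for Usp2, 4.5 for Bhlhe41, 4.03 for Per3, 3.86 for Per2, 3.61 for Eif4ebp3, 3.43 for Nr1d2, 3.18 for Sox9, 3.03 for Coq10b, 2.81 for Ppard, 2.77 for Tef, 2.71 for Cry1 and 1.82 for St3gal5. The WT level of Sox9 ran from a mean of 5.61 CPM at ZT12 to 29.2 CPM at ZT4, the time that holds a WT library of high acute phase level.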

How the results depend on the processing

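Counts of called genes moved with the threshold, the tool, the GC adjustment and single libraries, and where no construction shows it the cause was not tested. At an adjusted p under 0.01, 1736 genes were higher in CryKO, the interaction called 0.282% of genes tested, the times in order from ZT0 to ZT20 called 198, 585, 527, 252, 70 and 36, rhythms numbered 621 in WT and 4 in CryKO, and the rhythm difference called 0.725%. DESeq2 called 3.9% of genes in the interaction, 1352 genes at ZT0, 1311 at ZT16, 407 at ZT20, 313 rhythms in CryKO and 4.63% rhythm differences. Library size alone gave 68 rhythms in CryKO. GC-adjusted levels gave 1599 genes higher, 1699 lower, and 289, 653, 379, 450 and 197 from ZT0 to ZT16. When CryKO ZT20 replicate 1 was left out as well these were 1647, 1727, and 428, 840, 536, 637 and 323, with 0.931% in the interaction and 24 rhythms in CryKO. Without the 4 libraries of ZT20 the counts from ZT0 to ZT16 were 1458, 3135, 2812, 1680 and 1543, with 5 rhythms in CryKO. Without the 3 WT libraries of high acute phase level, ZT4, ZT16 and ZT20 called 458, 126 and 39.

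Leaving out 1 library at a time gave 2353 to 3331 genes higher, 2805 to 3283 lower, 0.35% to 13% in the interaction (the highest without CryKO ZT20 replicate 2, 0.837% without replicate 1, 0.752% without WT ZT4 replicate 2), 174 to 1598 at ZT0, 620 to 3242 at ZT4, 230 to 2947 at ZT8, 167 to 1810 at ZT12, 69 to 1648 at ZT16, 40 to 1540 at ZT20, 1087 to 2152 rhythms in WT, 13 to 83 in CryKO and 1.23% to 2.51% rhythm differences. The lowest counts at ZT0, ZT8, ZT12 and ZT16 came without CryKO ZT0 replicate 2, WT ZT8 replicate 1, WT ZT12 replicate 2 and WT ZT16 replicate 1.

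With the replicate number as a block, 366, 1201, 1057, 487, 267 and 48 genes were called from ZT0 to ZT20 and 0.947% rhythm differences, while 2402 genes were higher, 2896 lower and 0.307% called in the interaction. Same-numbered libraries deviated together with correlations of -0.10 to 0.12, so the numbers were not taken as pairs.

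On the log2 scale, GC-adjusted values changed sign for Akt1 (0.0599, and 0.0725 when CryKO ZT20 replicate 1 was left out as well), Akt2 (0.0216 and 0.0175), Ier2 (0.0363 and 0.0179) and Eif2s3y (-0.2456 and -0.202), and with both changes for Csnk1d (0.0061) and Canx (-0.0201). Of all values of 161 named genes under the alternatives, 5741 kept direction and call, 172 lost the call, 16 gained it and 10 changed sign.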

Other observations

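Of 26 genes of cholesterol synthesis and uptake, a list driven by the sterol-sensing SREBP factors, 4 had a 24 h rhythm in CryKO and 1 in WT, against 0.341% and 13.7% of all genes tested. Mvd, an enzyme of sterol synthesis, had a fitted range of 2.58 on the log2 scale in CryKO (edgeR adjusted p = 0.0356) and 1.59 in WT (0.051), Insig1, a sterol-induced regulator, 1.41 (0.0452) and 1.20 (0.0095), and Srebf1, of the list of glycolysis and lipogenesis, 1.63 (0.0356) and 0.77 (0.1704). For these 3 genes the difference of the curves did not pass (adjusted p of 0.3787, 0.9254 and 0.0769). Genes rhythmic in both genotypes included Gpcpd1, a glycerophosphodiesterase (2.86 in CryKO, 2.63 in WT), Fkbp4, a chaperone of steroid receptors (0.93 and 0.91), and Klf9, a glucocorticoid-induced factor (1.24 and 0.95). The count of 40 genes with a rhythm in CryKO fell to 5 without the 4 libraries of ZT20, and the genes named here were picked with their values in view.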
